A study of Bos taurus with 18 samples.

Results

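Neurons and endocrine cells carry a small set of microRNAs (miRNAs, short RNAs that repress messenger RNAs) in large amounts, and 5 of these were followed in the papillae of the bovine rumen. They are bta-miR-7, the 2 arms of the miR-9 hairpins (bta-miR-9-5p and bta-miR-9-3p), hsa-miR-124-3p and bta-miR-129-5p, taken by name because they are known from neurons and neuroendocrine cells. They are 5 of 824 miRNAs, into which the 966 listed names (759 bovine, 207 human) were merged. All 5 had reads in each of the 18 libraries, and all 5 passed the filter on low counts. Earlier results of these data were known when the names were chosen, so the choice was not blind to them.

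Small RNA was sequenced from rumen papillae of 9 rumen-cannulated Holstein cows that were not lactating. The groups were HG_PHY (4 libraries; high-grain diet with 65% concentrate, supplement labelled PHY), HG_CON (5 libraries; the same grain diet, control), FD_PHY (4 libraries; 100% forage, PHY arm) and FD_CON (5 libraries; 100% forage, control). All cows ate forage first and grain later, so diet and time cannot be told apart. The sources used here do not spell out PHY, say whether it was already fed during the forage period, or give the cows' age. The breed was the same throughout. A library held 5.74 to 15.2 M (mega-reads) of miRNA reads, summed over the merged miRNAs, from a sequencing depth of 19.5 to 42.7 M. In each library 515 to 591 miRNAs were seen. Mean miRNA reads were 9.26 M in HG_PHY, 8.53 M in HG_CON, 8.34 M in FD_PHY and 11.9 M in FD_CON.

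Rumen papillae are covered by a stratified squamous epithelium over a core of connective tissue with vessels and nerve fibres. miR-7 is known from endocrine and neuroendocrine cells, among them those of the pancreatic islet and pituitary, and from neurons. miR-9 and miR-124 act in neural differentiation, where miR-124 represses many genes that neurons do not use, and both arms of the miR-9 hairpin are used. miR-129-5p is a brain miRNA. A change in the level of such a miRNA in a whole-tissue sample cannot distinguish fewer cells of a type from less RNA per cell.

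Each member can come from several hairpins with the same mature product, which reads cannot separate. Per the file entries, miR-7 has hairpins on bovine chromosomes 21, 8 and 7, miR-9 on 21 and 7, miR-124 on 8, 14 and 13, and miR-129 on 4 and 15. In the RefSeq gene table (assembly ARS-UCD2.0, used for names and neighbours only) 9 of 10 bovine hairpins were found, and all 9 lay on the chromosome given in the files. MIR7-2 lies inside HNRNPK, which encodes an RNA-binding protein expressed in most cells. MIR9-2 lies inside a long non-coding RNA gene, LOC100616526, beside MEF2C, a transcription factor of muscle and neurons. MIR124A-1 lies inside another, LOC132345921. MIR124A-2 and MIR124B are next to BHLHE22 and BHLHE23, a pair of neural transcription factor genes.

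**Figure D1:**
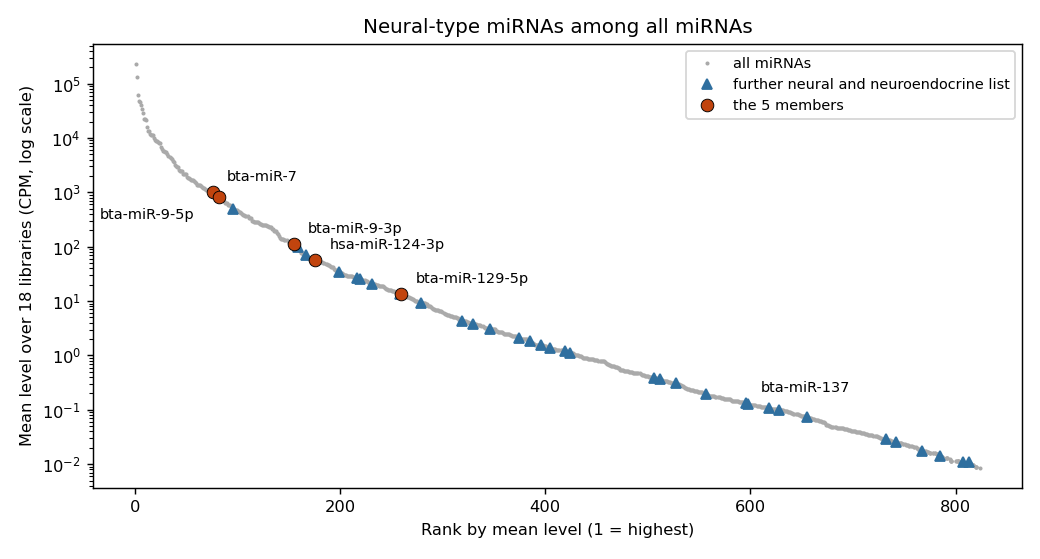
Mean level over 18 libraries (CPM, log scale) of all 824 miRNAs against their rank, with the 5 members (circles) and a further neural and neuroendocrine list (triangles). bta-miR-7 and bta-miR-9-5p rank 76 and 82, while bta-miR-137 of the further list ranks 596.

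The members spanned a wide range of levels. Levels are CPM, raw read counts scaled to a common library size with TMM, a correction for libraries in which a few miRNAs take many reads. Over the 18 libraries bta-miR-7 averaged 1014 CPM (rank 76 of 824), bta-miR-9-5p 808 CPM (rank 82), bta-miR-9-3p 111 CPM (rank 155), hsa-miR-124-3p 56.5 CPM (rank 176) and bta-miR-129-5p 13.4 CPM (rank 260). bta-miR-9-5p was therefore nearly as well covered as bta-miR-7, with 4011 to 13839 reads per library. bta-miR-129-5p was the scarce one, with 45 to 267 reads.

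The order of neighbouring levels held in most libraries but not in all. bta-miR-7 exceeded bta-miR-9-5p in 13 of 18 libraries (median ratio 1.32), the exceptions being HG_CON 1, FD_PHY 4 and FD_CON 1, 3 and 4. The difference of this pair was not tested. bta-miR-9-5p exceeded bta-miR-9-3p in 18 of 18. bta-miR-9-3p exceeded hsa-miR-124-3p in 17 of 18, HG_CON 3 being the exception. hsa-miR-124-3p exceeded bta-miR-129-5p in 18 of 18. These are numbers of reads, which for different miRNAs also depend on how well each sequence enters the library.

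**Figure D2:**
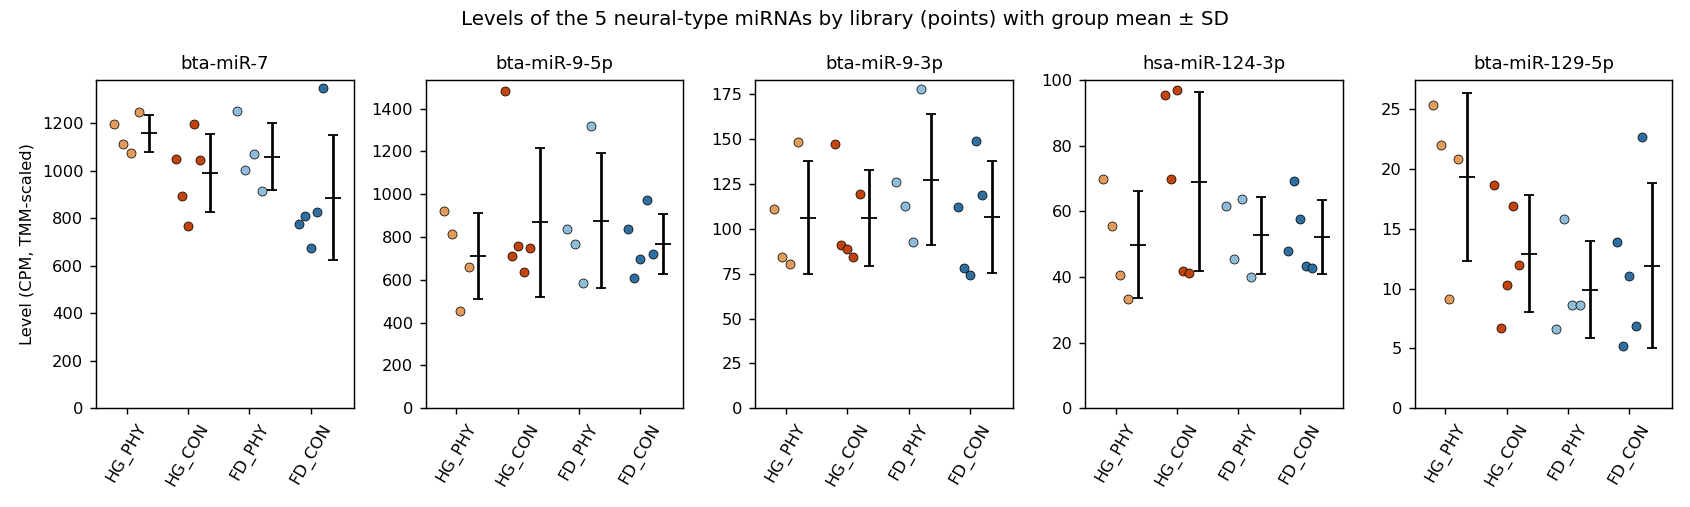
Level (CPM, TMM-scaled) of each member by library (points), with the group mean ± SD to the right of the points, for HG_PHY, HG_CON, FD_PHY and FD_CON. One FD_CON library stands at 1347 CPM for bta-miR-7 and one HG_CON library at 1484 CPM for bta-miR-9-5p.

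bta-miR-7 varied least among the members. It stood at 1197, 1111, 1073 and 1247 CPM in the HG_PHY libraries, against 1250, 1002, 1071 and 914 CPM in the FD_PHY libraries. In control cows it stood at 1048, 892, 767, 1197 and 1047 CPM in HG_CON, against 777, 807, 675, 826 and 1347 CPM in FD_CON. All groups overlapped, and the 4 other FD_CON libraries were the lowest but for 1 HG_CON library. The means were 1157 ± 79.5 CPM in HG_PHY (SD, n = 4), 990 ± 165 CPM in HG_CON (n = 5), 1059 ± 142.4 CPM in FD_PHY (n = 4) and 886 ± 264 CPM in FD_CON (n = 5). The biological coefficient of variation, edgeR's estimate of spread between libraries beyond counting, was 19.3% for bta-miR-7, against a median of 29.7% over all miRNAs tested.

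The human entry hsa-miR-7-5p was counted from almost the same reads as bta-miR-7: between 1.01% and 2.01% of the bta-miR-7 reads of a library did not appear under it. The 2 names were therefore taken as 1 miRNA. The authors' adjusted count, in which reads are shared out over the places they fit, was 0.216 of the raw count for bta-miR-7 and 0.2 for both miR-9 arms.

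The 2 arms of miR-9 were both present and tended to be high in the same libraries. bta-miR-9-5p stood at 920, 813, 456 and 661 CPM in HG_PHY, against 836, 766, 585 and 1321 CPM in FD_PHY. It stood at 1484, 712, 760, 639 and 750 CPM in HG_CON, against 837, 609, 699, 975.4 and 721 CPM in FD_CON. FD_PHY 4 and HG_CON 1 were the highest of their groups, with the next at 836 and 760 CPM, and otherwise the groups covered much the same range. bta-miR-9-3p stood at 111, 84.3, 80.5 and 149 CPM in HG_PHY, against 126.2, 113, 92.8 and 178 CPM in FD_PHY. It stood at 147, 91.2, 88.8, 84.3 and 120 CPM in HG_CON, against 112, 78.0, 74.3, 149 and 119 CPM in FD_CON. FD_PHY 4 was the highest library for the 3p arm, and HG_CON 1 for the 5p arm.

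The ratio of the 5p to the 3p arm does not depend on how libraries are scaled. It averaged 7.37 ± 1.46 (SD, n = 18) with a range of 4.45 to 10.1, and it was 7.59 ± 1.85 on grain against 7.16 ± 1.02 on forage (SD, n = 9 each). An exact permutation test of the log2 ratio, two-sided and unadjusted, gave p = 0.715 for both arms of the study together, 0.484 in CON and 0.971 in PHY. HG_PHY 4 had the lowest ratio. Its 3p level was 149 CPM, above the median of 112 CPM over 18 libraries, and its 5p level was 661 CPM, under the median of 755 CPM. Over the 18 libraries the log2 levels of the 2 arms had Pearson's r = 0.71 and Spearman's rho = 0.62, a description of libraries that share their scaling. Of the 10 pairs of members, the next highest was bta-miR-7 with bta-miR-129-5p (r = 0.51, rho = 0.47).

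**Figure D3:**
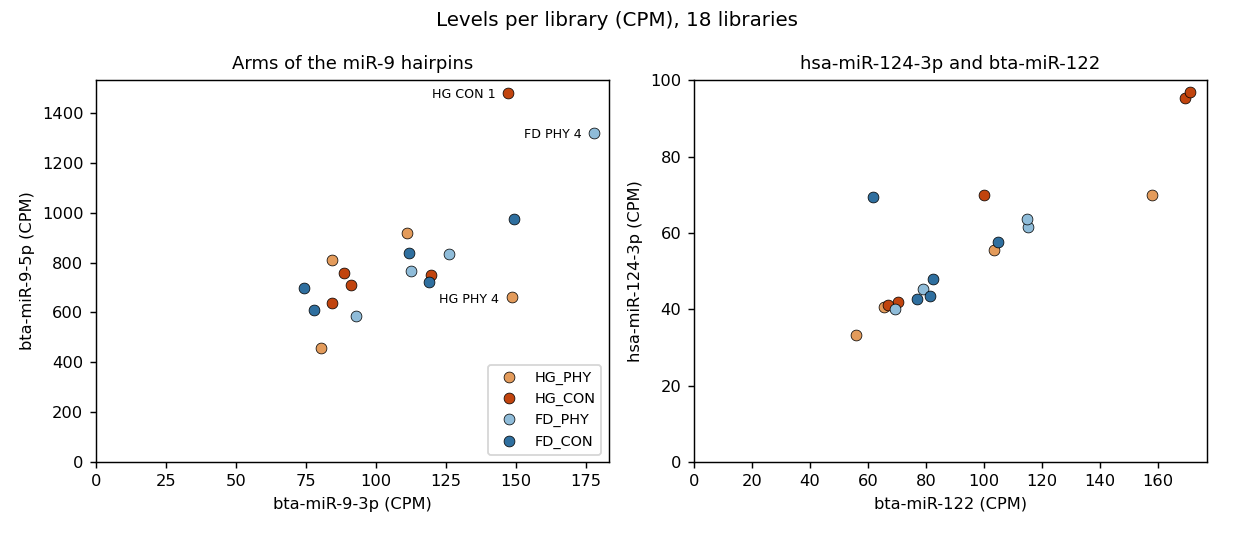
Left, bta-miR-9-5p against bta-miR-9-3p, and right, hsa-miR-124-3p against bta-miR-122, both in CPM with 1 point per library, coloured by group. HG_CON 1 and FD_PHY 4 hold the highest bta-miR-9-5p levels, and a pair of HG_CON libraries holds the highest hsa-miR-124-3p levels, at 95.4 and 97.0 CPM.

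hsa-miR-124-3p, which also stands for the bovine entries miR-124a and miR-124b, split the HG_CON group. It stood at 95.4, 69.9, 97.0, 41.9 and 41.2 CPM in HG_CON, against 48.0, 69.4, 57.7, 43.4 and 42.6 CPM in FD_CON. Of the 5 HG_CON libraries, 2 were above every FD_CON library by more than the counting error. HG_CON 2 was above the highest FD_CON library, and the last 2 were below the lowest, by less than the counting error. It stood at 70.0, 55.5, 40.6 and 33.3 CPM in HG_PHY, against 61.6, 45.4, 63.7 and 40.1 CPM in FD_PHY, and these groups overlapped.

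The reads of hsa-miR-124-3p did not follow library size. The 8 libraries of the PHY arm held between 386 and 481 hsa-miR-124-3p reads each, while their size ran from 6.001 to 13.3 M. The coefficient of variation over these 8 libraries was 6.50% for the raw reads and 25.8% for CPM, so that scaling to library size widened the spread. For bta-miR-7 it was 27.2% for the raw reads and 10.7% for CPM, the opposite. Over the 275 tested miRNAs that averaged 10 CPM or more, the ratio of these 2 spreads ranked second lowest for hsa-miR-124-3p, at 0.252 against a median of 1.73. That holds for the 8 PHY-arm libraries, while over all 18 libraries its ratio was 0.936, rank 13 from the lowest. hsa-miR-124-3p was singled out here after these values were seen. In the CON arm its raw reads reached 924, in HG_CON 3, and the spread was 32.1% for raw reads and 35.7% for CPM. Over 18 libraries its CPM had Spearman's rho = -0.50 with library size, which is itself the divisor of CPM. The part of library size in its differences between groups was not tested.

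By the highest Spearman's rho of log2 CPM over 18 libraries, among 274 candidates, the miRNAs most like hsa-miR-124-3p were miR-122 (0.80), known from liver, miR-375 (0.80), known from endocrine cells, miR-374a (0.77), miR-326 (0.76) and miR-486 (0.76), known from red blood cells. The summed erythroid markers, miR-451 and miR-486, ran from 6290 to 16544 CPM in HG_PHY, 7737 to 18013 CPM in HG_CON, 7168 to 12091 CPM in FD_PHY and 6289 to 13850 CPM in FD_CON. Their part in the hsa-miR-124-3p levels was not tested. Raw reads of miR-122, miR-375 and miR-486 also did not follow library size, with Spearman's rho of -0.30, 0.08 and -0.10 with it. The median was 0.73 over the 275 miRNAs that averaged 10 CPM or more. Levels in CPM share library size as their divisor, and its part in the likeness to hsa-miR-124-3p was not tested.

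On the log2 scale, bta-miR-129-5p showed the largest difference between diets among the members, in the PHY arm. It stood at 25.3, 22.0, 9.15 and 20.8 CPM in HG_PHY, against 6.58, 15.8, 8.61 and 8.59 CPM in FD_PHY. Of the 4 HG_PHY libraries, 3 were above every FD_PHY library, and HG_PHY 3 was not. In control cows it stood at 18.7, 6.72, 10.3, 16.9 and 11.97 CPM in HG_CON, against 13.9, 5.16, 11.03, 6.84 and 22.6 CPM in FD_CON, where the highest of all 10 was a forage library. Its biological coefficient of variation was 41.3%, the widest of the members.

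The diet comparison asked whether levels differed between grain and forage feeding. None of the 5 members passed the threshold (edgeR's quasi-likelihood test, Benjamini-Hochberg adjusted p under 0.05) with both arms together, where 1 of 468 miRNAs passed (0.214%). The log2 change, grain minus forage, was 0.53 ± 0.28 for bta-miR-129-5p (SE; 95% interval -0.05 to 1.12; adjusted p = 0.468), with 6 of 9 grain libraries above the forage mean. It was 0.14 for bta-miR-7 (-0.11 to 0.40) and 0.16 for hsa-miR-124-3p (-0.24 to 0.56). For the miR-9 arms it was -0.06 for 5p (-0.44 to 0.31) and -0.13 for 3p (-0.50 to 0.23). Single libraries moved these values: bta-miR-7 was 0.24 without FD_CON 5, hsa-miR-124-3p 0.059 without HG_PHY 1, and bta-miR-9-3p -0.24 without HG_PHY 4 and -0.042 without FD_PHY 4. The intervals leave room for changes of either sign in all 5.

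Within the PHY arm the bta-miR-129-5p change was 0.96 ± 0.42 (95% interval 0.08 to 1.83; edgeR adjusted p = 0.647). Before adjustment edgeR's fit across all miRNAs gave 0.0346. In this comparison 7.05% of all miRNAs had an unadjusted p under 0.05 and 0% passed after adjustment. An exact permutation test of its log2 level gave p = 0.0571, where 4 against 4 libraries allow no less than 0.0286. This test treated libraries as independent, although the cows were on both diets. It is 1 of 15 such tests on the members. In CON the change was 0.11 ± 0.37 (-0.67 to 0.89; adjusted p = 0.976). The difference between the arms, 0.84 ± 0.56 (-0.33 to 2.01), did not pass either (edgeR adjusted p = 0.997), and it was 0.48 without FD_CON 5. In that comparison 0% of miRNAs passed and 2.14% had an unadjusted p under 0.05. The PHY-arm diet change of bta-miR-129-5p was the only one of the 30 member values over 6 comparisons with an unadjusted edgeR p under 0.05.

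bta-miR-7 in CON had a log2 change of 0.16 ± 0.16 (-0.18 to 0.50), which became 0.36 without FD_CON 5, the library at 1347 CPM, and still did not pass (edgeR adjusted p = 0.258). It was 0.070 without FD_CON 3. hsa-miR-124-3p had 0.40 ± 0.26 in CON (-0.13 to 0.94), or 0.23 without HG_CON 3, and -0.08 ± 0.29 in PHY (-0.68 to 0.52). bta-miR-9-5p had 0.18 in CON (-0.32 to 0.68) and -0.30 in PHY (-0.86 to 0.26), and the CON value was -0.09 without HG_CON 1. The PHY value ran from -0.46 without FD_PHY 3 to -0.044 without FD_PHY 4. bta-miR-9-3p had -0.0046 in CON (-0.49 to 0.48) and -0.26 in PHY (-0.80 to 0.28), a PHY value running from -0.47 without HG_PHY 4 to -0.072 without FD_PHY 4. In CON 0% of miRNAs passed, and 10.7% had an unadjusted p under 0.05.

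**Figure D4:**
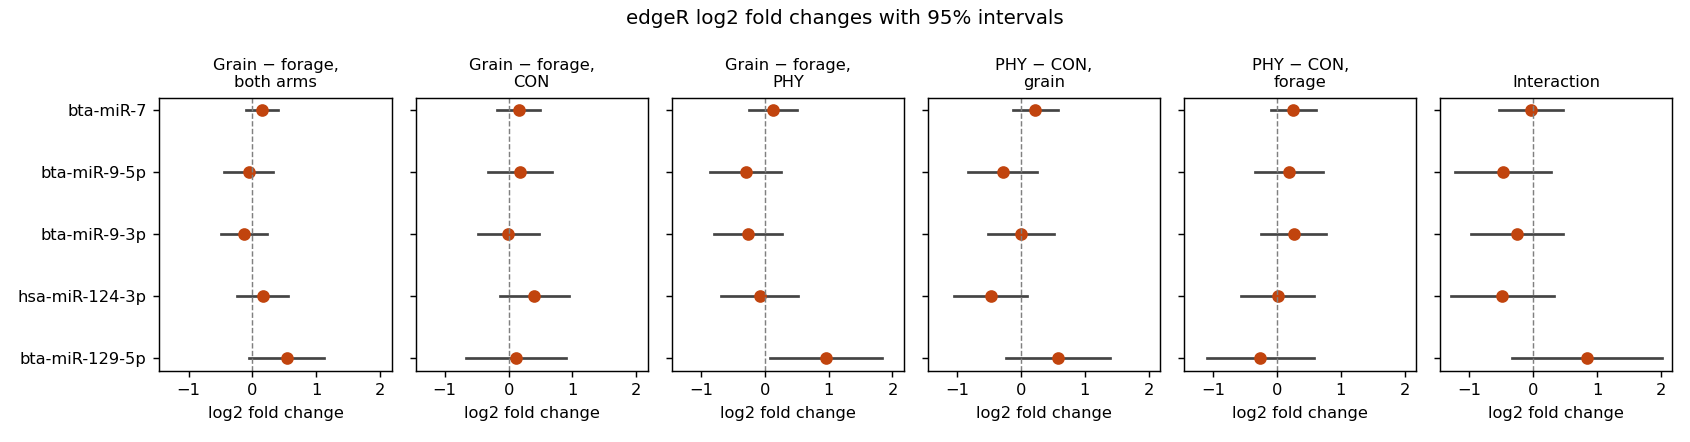
Log2 fold change of each member (point) with its 95% interval (line) in 6 comparisons by edgeR. Every interval crosses 0 except that of bta-miR-129-5p for grain minus forage in PHY, from 0.08 to 1.83.

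The PHY arm was set against CON on each diet. On grain, where 0% of miRNAs passed, bta-miR-129-5p was at 19.3 ± 7.05 CPM in HG_PHY and 12.9 ± 4.89 CPM in HG_CON, a log2 difference of 0.58 (-0.24 to 1.40). hsa-miR-124-3p was at 49.8 ± 16.3 CPM in HG_PHY and 69.1 ± 27.3 CPM in HG_CON, a difference of -0.47 (-1.05 to 0.10), or -0.28 without HG_CON 3. bta-miR-7 was 0.22 higher on the log2 scale on grain (-0.13 to 0.58) and 0.26 higher on forage (-0.10 to 0.61), and neither value passed. On forage 0% of miRNAs passed and 4.7% had an unadjusted p under 0.05, against 6.84% on grain. The forage value of bta-miR-7 was 0.46 without FD_CON 5. The grain and forage differences use different libraries of the same 9 cows, so they are not independent repeats. PHY and CON are different cows.

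A further list of 26 miRNA numbers known from neurons, glia and endocrine cells held 33 miRNAs beside the members, 18 of them tested. None was called in any of the 6 comparisons in either direction. With both arms together, 7 of 18 were above 0 on grain with a median log2 change of -0.09, beside 230 of 468 and a median of -0.01 over all miRNAs tested. The most abundant were miR-128, a miRNA of mature neurons, at 487 CPM, miR-95 at 97.3 CPM, miR-139 at 69.6 CPM, miR-375 at 34.8 CPM and miR-326 at 26.5 CPM. The lowest unadjusted p values belonged to miR-128 (log2 change 0.21 ± 0.09, adjusted p = 0.330, 8 of 9 grain libraries above the forage mean), miR-330 (0.32 ± 0.14, adjusted p = 0.405, 8 of 9) and miR-139 (-0.30 ± 0.16, adjusted p = 0.468, 1 of 9), by edgeR.

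The neural label was checked against other markers. Among the neuron markers beside the members, miR-128 averaged 487 CPM and had reads in all 18 libraries. miR-137, a neuron-enriched miRNA, averaged 0.13 CPM and had reads in 9 of 18 libraries, and miR-153, another, averaged 3.10 CPM. The neuroendocrine marker miR-375 averaged 34.8 CPM. The opposite arm of miR-124, hsa-miR-124-5p, averaged 0.075 CPM in 6 libraries. The glial markers miR-219 and miR-338 summed to between 10.97 and 20.3 CPM. Of the 12 entries of the neuron list 4 are the members themselves (both miR-9 arms, hsa-miR-124-3p and bta-miR-129-5p), so the list's sum restates their levels. By contrast miR-205 of stratified epithelium averaged 28641 CPM and miR-143 of smooth muscle and mesenchyme 133123 CPM. The levels therefore do not show which cells of the papillae carry the members, and neuron markers were uneven: bta-miR-9-5p was abundant while miR-137 was near 0.

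Of the other cell types' marker sums, that of smooth muscle and mesenchyme did not overlap between diets within either arm. The share of all miRNAs without such overlap was not counted, so a lack of overlap here does not set a cell type apart. The summed smooth muscle and mesenchyme markers ran from 103322 to 112506 CPM in HG_PHY and 103889 to 133636 CPM in HG_CON, against 129706 to 166694 CPM in FD_PHY and 139270 to 299678 CPM in FD_CON. Most of this sum is miR-143, whose diet change with both arms together, -0.51 ± 0.12, did not pass (edgeR adjusted p = 0.110). Among the alternative runs, miR-143 was called with DESeq2, without the filter and with the replicate number as a block. It was also called without FD_CON 2 and without HG_CON 3, and in no other run. The endothelial sum, of the miR-126 arms, ran from 9451 to 12984 CPM in HG_PHY and 11568 to 14188 CPM in HG_CON, against 13013 to 14856 CPM in FD_PHY and 13366 to 16158 CPM in FD_CON, which did not overlap in PHY by a narrow margin. The stratified epithelium, leukocyte, striated muscle, erythroid and glial sums overlapped between diets in both arms. Stratified epithelium, for example, is miR-205 alone here. It ran from 25710 to 29232 CPM in HG_PHY and 23561 to 34854 CPM in HG_CON, against 24700 to 29488 CPM in FD_PHY and 27226 to 36514 CPM in FD_CON. The part of these markers in the members' values was not tested.

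By the same measure of likeness, bta-miR-7 ran most like hsa-miR-18a-5p (0.78), miR-484 (0.72), miR-7857-3p (0.71), miR-6120-3p (0.68) and miR-221 (0.65). bta-miR-9-5p ran most like its own 3p arm (0.62) and then miR-375 (0.50), miR-202 (0.50), miR-144 (0.46) and miR-15b (0.44). bta-miR-9-3p ran most like hsa-miR-18a-3p (0.73), followed by its 5p arm (0.62), miR-185 (0.57), miR-103 (0.57) and miR-107 (0.56). bta-miR-129-5p ran most like miR-27a-3p (0.82), hsa-miR-99b-3p (0.82), let-7i (0.81), miR-221 (0.80) and miR-130b (0.79).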

How the data were processed

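Small RNA libraries of rumen papillae (NucleoSpin miRNA extraction and NETflex Small RNA-Seq libraries, per the labels' protocols) were analysed from the authors' processed files. Per the file headers, each library file deposited by the authors gives raw read counts per miRNA name and expected counts (the authors' adjusted counts), in which reads are shared over the names and places they fit. The authors' deposited series table gives normalized signal for 673 names. All 12114 of its values became whole reads within 0.01 reads (100%). Tools in the submitters' processing notes are bcl2fastq 2.20 and DESeq2. No source used here gives an aligner, counter or genome build, so no coordinates are printed.

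Names whose positions overlapped by 15 nt or more were merged, as were bovine and human names of 1 miRNA with totals within 5%, keeping the name with most reads, since the authors counted a read under each name it fits. Raw counts of 468 miRNAs that passed filterByExpr were tested with edgeR 4.0.16 (R 4.3.3) with TMM scaling, 4 group means and 18 libraries, and p-values were adjusted over all 468 by Benjamini-Hochberg (threshold 0.05, two-sided). No term for cow was used, so libraries from 9 cows are treated as independent. Exact permutation tests used log2(CPM + 0.5), unadjusted, and also treated libraries as independent. On simulated data with 455 miRNAs tested, the diet fit recovered 81.1% of 95 changed by 1 on the log2 scale and 99.0% of 98 changed by 2. The simulation used all 18 libraries, no cow effect and a far larger share of changed miRNAs than was called here. That share eases the adjusted threshold, so these rates are not the power of the tests above. DESeq2 1.42.0 and limma 3.58.1 served as alternatives. Intervals cover the spread between libraries as the model estimates it. The members and lists were chosen with earlier results of these data known. The rule for named miRNAs took all members, of the further list any called, the 5 most abundant and the 3 with the lowest p, and the 5 miRNAs most like each member. Its part on shared seeds was not applied, and miR-598, miR-873, miR-876 and miR-203 are not analysed here.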

Additional observations from a re-analysis of the deposited data

Results flagged for a closer look

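By Dixon's gap criterion a single library stood apart from its group in 2 of the 24 group values checked, where chance alone flags about 1 in 20. FD_CON 5 held bta-miR-7 at 1347 CPM, while the 4 other FD_CON libraries held 675 to 826 CPM. HG_CON 1 held bta-miR-9-5p at 1484 CPM, while the 4 other HG_CON libraries held 639 to 760 CPM. Each was set apart by its gap to the next library, 0.776 and 0.856 of the group's whole range, against a critical value of 0.71 for 5 libraries.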

How the results depend on the processing

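No member was called in any comparison under any alternative run. With both arms together, the number of miRNAs called was 1, and it was 2 with library totals alone, 3 without the filter, 5 with DESeq2, 0 with adjusted counts, 2 with limma on the authors' table and 2 on the reads recovered from it (added after seeing the data). It ran from 0 to 3 with each library left out. PHY against CON called 0 on forage, 1 without the filter and 1 with DESeq2, and 0 to 1 with a library left out; on grain it called 0, 2 with DESeq2 and 0 to 2 with a library left out. Whether a replicate number marks a cow is not stated. Same-number correlations ran from 7.2e-05 to 0.41 (mean 0.14), with 9 of 9 above 0 and 5 of 9 over 0.1. Between different numbers the mean was -0.04. Each group was centred on its own mean, which balances the values of an arm around 0. Same-number values above 0 therefore go with a mean below 0 between different numbers. Of the 9 forage libraries, 3 correlated best with their own number. These values do not settle whether a number marks a cow. The main test did not use the numbers as pairs. With the replicate number as a block, 4 miRNAs were called for diet, 1 for PHY on forage and 1 on grain, and under the block the log2 value was 0.015 for bta-miR-9-3p in CON, -0.12 for hsa-miR-124-3p on forage, 0.011 for bta-miR-129-5p on forage and 0.0053 for bta-miR-9-3p on grain. For bta-miR-129-5p on grain against forage in PHY it was 0.94 ± 0.34 (adjusted p = 0.293).

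Library totals alone moved the median log2 change of all miRNAs to 0.17 for diet in CON, 0.12 for PHY against CON on forage and -0.14 for the interaction. Values near 0 changed sign. bta-miR-9-5p with both arms was 0.055 with library totals alone. bta-miR-9-3p in CON was 0.0054 with RLE factors, 0.19 with library totals, 0.017 without the filter, 0.0054 with DESeq2 and 0.026 with limma. hsa-miR-124-3p on forage was -0.0034 with adjusted counts, and bta-miR-9-3p on grain 0.0027 on recovered reads. The cause was not tested. With a library left out, values for diet ran from -0.21 to 0.058 for bta-miR-9-5p with both arms, and in CON from -0.088 to 0.28 for bta-miR-9-5p, -0.13 to 0.15 for bta-miR-9-3p and -0.11 to 0.48 for bta-miR-129-5p. In PHY hsa-miR-124-3p ran from -0.29 to 0.074. On forage PHY against CON ran from -0.062 to 0.33 for bta-miR-9-5p, -0.10 to 0.14 for hsa-miR-124-3p and -0.56 to 0.11 for bta-miR-129-5p; on grain bta-miR-9-3p ran from -0.18 to 0.14. The interaction of bta-miR-7 ran from -0.23 to 0.062. In the exact permutation tests with a library left out, the log2 differences ran from -0.18 to 0.035 for bta-miR-9-5p with both arms, and in CON from -0.088 to 0.22 for bta-miR-9-5p, -0.11 to 0.15 for bta-miR-9-3p and -0.034 to 0.47 for bta-miR-129-5p. In PHY hsa-miR-124-3p ran from -0.29 to 0.063. bta-miR-129-5p with both arms ran from 0.41 to 0.66, with the lowest p, 0.0367, without FD_CON 5. The miR-9 arm ratio ran from -0.0025 to 0.15 with both arms and from -0.19 to 0.18 in PHY. With Pearson's r in place of Spearman's rho, 3 of the 5 most like miRNAs of bta-miR-7 and 3 of hsa-miR-124-3p were shared.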

Other observations

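The reads of a small number of miRNAs did not follow library size, and hsa-miR-124-3p was one of them. This set was singled out after its values were seen. In the 8 PHY-arm libraries, 28 of 275 miRNAs with a mean of at least 10 CPM varied less in raw reads than in CPM. The 10 with the lowest ratio of the 2 spreads were miR-2419-5p, hsa-miR-124-3p, miR-451, miR-150, miR-122, miR-486, miR-144, miR-2285bc, miR-375 and miR-302b. miR-2419-5p had between 373 and 409 reads in each of these libraries, a spread of 3.61%, against 22.3% in CPM. miR-122, a liver miRNA, had 623 to 1037 reads there, and miR-302b, a miRNA of pluripotent cells, 193 to 329. miR-451, miR-486 and miR-144 are known from red blood cells and miR-150 from lymphocytes. Over all 18 libraries Spearman's rho of raw reads with library size was -0.30 for miR-122, 0.08 for miR-375 and 0.02 for hsa-miR-124-3p, against a median of 0.73 over the 275. No test was made of why these reads do not follow library size.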
